A study of Mus musculus with 20 samples.

Results

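Colonoids are self-organising structures of colonic epithelium that grow from crypt cells embedded in a gel matrix. The course of wildtype (WT) colonoids after passage was described by comparing late cultures, harvested 5 and 7 days post-passage (DPP), with early cultures, harvested 1, 2 and 3 DPP. All WT libraries were taken, 10 of the 20 libraries of the series, of which 4 were late and 6 were early. The other 10 libraries were from Tnfr2-/- mice, which lack the TNF receptor TNFR2 in every cell, and were used only to ask whether the WT course differed from theirs. WT mice carried no engineered allele, the labels name no treatment of the cultures of either genotype, and they give no age for the mice. Crypts were expanded in Matrigel under Intesticult medium, which keeps stem cells dividing, for 5 passages, and the colonoids were then filtered through a 70 µm mesh and seeded, without being dispersed to single cells. The replicate number, 1 or 2, was read as naming the mouse, so culture 1 and culture 2 each gave 1 library per day, and the days of a culture are repeated samples of 1 animal rather than separate animals. P-values therefore measure the change over days against the scatter within these 2 cultures, and do not reach to other mice.

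In the colon, stem cells at the crypt base divide under Wnt and Notch control and give rise to transit cells that stop dividing and become absorptive colonocytes or secretory cells (goblet, deep crypt secretory, enteroendocrine and tuft cells). After passage, fragments of colonoids first close, grow and express wound-associated genes, and then bud and produce differentiated cells. The comparison asks which genes, functions and transcription factors follow that sequence in normal cultures.

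The level of a gene is given here as normalised TPM, that is, the abundance of its transcripts per unit of length as a share of the library, divided by a size factor for each library and summed over its transcripts. Levels of different genes can therefore be set side by side. The WT libraries summed to between 899764 and 1052616 and held 13116 to 13469 genes at a level of 1 or more. The 10 highest genes took between 7.338% and 11.893% of a library, more in the late than in the 1 and 2 DPP libraries. Cultures 1 and 2 correlated across genes at a Pearson r of 0.9199 to 0.9466 on the same day, where genes are not independent replicates. The cultures also differed from each other. On the first principal component, which held 33.1% of the variance and ran from early to late, culture 1 moved from 38.25 at 1 DPP to -63.61 at 7 DPP and culture 2 from 49.3 to -24.46, with culture 1 at the lower value on each day. Below, levels are listed in the order 1, 2 and 3 DPP (early) and 5 and 7 DPP (late). Log2 fold changes (log2 FC) are late over early on the log2(level + 1) scale with culture as a block and ± standard error. Means are ± SD over 6 early and 4 late libraries. Where a call was lost with 1 of the 10 libraries left out in turn, square brackets give the range of the adjusted p over the 10 leave-outs, the number of leave-outs that lost the call, and the library without which p was highest.

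The epithelial identity of the cultures was checked first. All 14 epithelial markers were measured, of which 7 rose, and the keratin genes Krt8 (log2 FC -0.0017 ± 0.16, adjusted p = 0.996) and Krt19 (log2 FC 0.08 ± 0.17, adjusted p = 0.791) stood at mean levels between 4935 and 7353 in both phases. Epcam, an epithelial adhesion molecule, was at 478, 381 and 522 early and 907 and 1885 late in culture 1. Culture 2 had 436, 362 and 458 early and 762 and 1104 late. For Epcam every late library lay above every early one (log2 FC 1.33 ± 0.21, adjusted p = 0.00614). The number of epithelial markers that rose was 4 without either one of the 7 DPP libraries and 5 without the culture block. Fibroblast markers were also present: all 24 were measured, and their summed level in culture 1 was 7421, 5823 and 3805 early and 2782 and 3963 late, against 7661, 8272 and 7374 early and 7674 and 9580 late in culture 2. The fibroblast markers thus declined over the early days in culture 1 and did not in culture 2, and the median log2 fold change of the list was -0.59 in culture 1 and 0.22 in culture 2. Of the 24 fibroblast markers 2 rose (8.33%) and 1 fell (4.17%), near the shares of all genes (7.22% and 4.19%), and 21 were not called. A negative fold change was seen in 16 of them. Over the leave-outs 0 to 4 rose and 0 to 2 fell. Among them the collagen gene Col3a1 fell (log2 FC -1.02 ± 0.28, adjusted p = 0.0422 [0.0414 to 0.124, 6 lost, culture 1 at 7 DPP]). The smooth muscle protein gene Tagln rose (log2 FC 1.30 ± 0.27, adjusted p = 0.0174 [0.0116 to 0.0585, 2 lost, culture 1 at 7 DPP]), as did the surface glycoprotein gene Thy1 (log2 FC 1.56 ± 0.36, adjusted p = 0.0228 [0.0104 to 0.0807, 4 lost, culture 1 at 7 DPP]). Col3a1, Tagln and, of the macrophage genes below, Csf1r were not called without the culture block. The study's methods state that mesenchymal cells were removed by computation from its single-cell data of such cultures, which cannot be done in bulk RNA, so that fewer cells of a type and less RNA per cell cannot be told apart anywhere below. Of 14 haematopoietic markers 5 were measured at a mean of 1 or more, with sums of 20.4 to 35.4 early and 40.6 to 72.5 late. Ptprc, which marks all leukocytes, was not among them, and Csf1r (log2 FC 1.17 ± 0.33, adjusted p = 0.0439 [0.0423 to 0.138, 9 lost, culture 1 at 7 DPP]) and Cd14 (log2 FC 0.99 ± 0.26, adjusted p = 0.0371 [0.0236 to 0.0991, 6 lost, culture 1 at 7 DPP]), of macrophages, rose. These 2 were the only calls among the 5 haematopoietic markers measured. Of the 5, 3 had a positive and 2 a negative fold change, from -1.23 to 1.17, with a median of 0.28. Over the leave-outs 0 to 2 of them rose and 0 to 1 fell. Endothelial markers summed to 6.49 to 23.7 early and 8.34 to 12.2 late, with 3 of 9 measured, and of 8 neural and glial markers only Ret was measured, at sums of 0 to 1.77 early and 1.26 to 8.81 late.

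Of 13617 genes tested, 1554 (11.4%) passed an adjusted p of 0.05, of which 983 (7.22% of all genes) were higher late and 571 (4.19%) were lower late. The median log2 fold change over all genes was 0.02. Rises were larger than falls: 565 genes rose and 142 fell by more than 1 on the log2 scale, and 133 rose and 21 fell by more than 2. All 4 late libraries lay above all 6 early ones in 682 genes (5.01%) and below them in 534 (3.92%). The genes that rose had their highest daily mean at 7 DPP in 708 cases and at 5 DPP in 275, while those that fell peaked at 2 DPP in 299 cases, at 1 DPP in 215 and at 3 DPP in 57. The counts depended on single libraries. With 1 library left out in turn, 349 to 1110 genes rose and 153 to 678 fell, both fewest without culture 1 at 7 DPP. Without culture 2 at 7 DPP 476 rose and 258 fell, and without culture 1 at 2 DPP 498 rose and 226 fell. With both 7 DPP libraries left out, so that only those of 5 DPP were late, 23 rose and 8 fell. Without the culture block 650 rose and 410 fell. The share of rises among the calls, 63.3%, was 50.88% (834 higher and 805 lower) when libraries were scaled to equal sums.

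**Figure D1:**
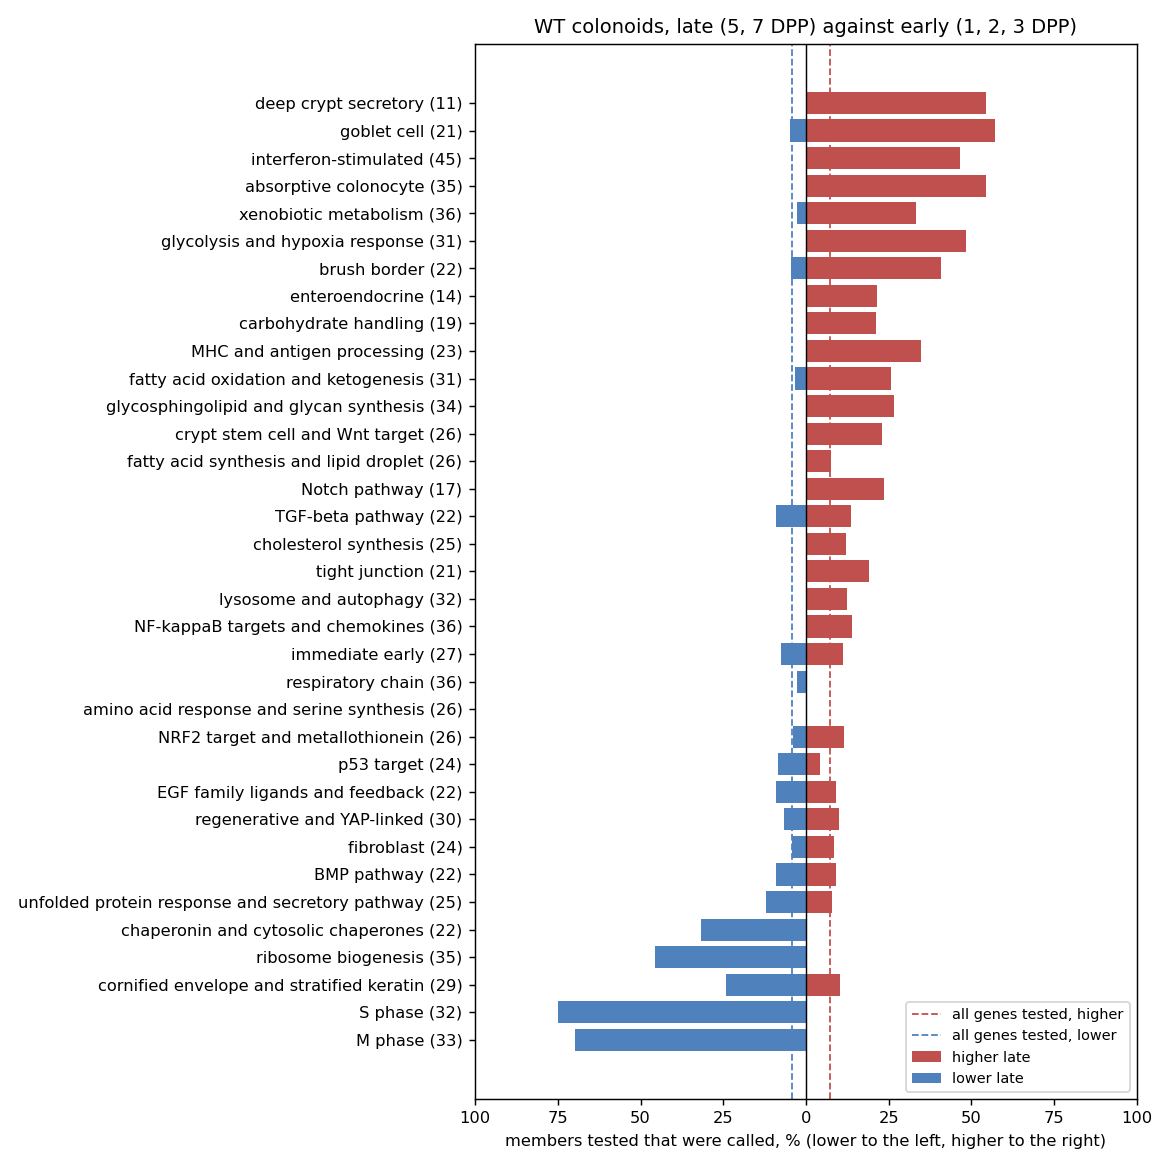
Share of the genes tested in each list that passed the test in WT colonoids, lower late to the left in blue and higher late to the right in red, with the number of genes tested in brackets and dashed lines at the share of all genes (4.19% lower, 7.22% higher). Lists are ordered by the median log2 fold change. The S phase, M phase and ribosome biogenesis lists hold calls to the left only, and the absorptive colonocyte, interferon-stimulated and glycolysis lists to the right only.

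Genes of DNA replication and mitosis fell together. In the S phase list 24 of 32 genes fell and none rose, with a median log2 fold change of -0.85 (-1.02 in culture 1 and -0.68 in culture 2). In the M phase list 23 of 33 fell and none rose, with a median of -0.87 (-0.91 in culture 1 and -0.71 in culture 2). All genes of both lists had a negative fold change. Rrm2 (chr12:24708241-24714146), the regulated subunit of the ribonucleotide reductase that makes deoxyribonucleotides, was at 152, 168 and 91.5 early and 41.5 and 28.7 late in culture 1. Culture 2 had 108, 125 and 110.0 early and 54.8 and 45 late. For Rrm2 every late library lay below every early one (log2 FC -1.55 ± 0.21, adjusted p = 0.00403), the largest fall of the list. Cdc6, which loads the replicative helicase at origins, was at 18 ± 4.66 early against 6.63 ± 1.02 late, and Mcm5, a subunit of that helicase, at 61 ± 17.5 early against 24.6 ± 6.12 late. Both fell with no overlap between the phases (Cdc6 log2 FC -1.28 ± 0.22, adjusted p = 0.00832; Mcm5 log2 FC -1.27 ± 0.23, adjusted p = 0.0101). Ccne2, a cyclin of the G1 to S transition, fell as well (log2 FC -1.08 ± 0.26, adjusted p = 0.0258 [0.0228 to 0.0813, 5 lost, culture 1 at 7 DPP]).

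Among mitotic genes, Cdk1 (chr10:69335146-69352938), the kinase that drives entry into mitosis, was at 171, 175 and 132 early and 71.1 and 57.6 late in culture 1. Culture 2 had 103, 154 and 125 early and 68.7 and 58.3 late. In Cdk1 every late library lay below every early one (log2 FC -1.13 ± 0.15, adjusted p = 0.00366). Its partner cyclin B1, Ccnb1, was at 90.5, 105 and 62 early and 44.2 and 24.9 late in culture 1. Culture 2 had 46.9, 75.5 and 56.5 early and 23.2 and 30.4 late. For Ccnb1 every late library lay below every early one (log2 FC -1.21 ± 0.21, adjusted p = 0.0093), with the peak at 2 DPP in both cultures. Birc5, the survivin gene of the chromosomal passenger complex, stood at 99.6 ± 25.4 early against 42.5 ± 11.8 late (log2 FC -1.21 ± 0.19, adjusted p = 0.00608). Tacc3, a spindle protein, stood at 64.2 ± 16.9 early against 27.6 ± 1.99 late (log2 FC -1.15 ± 0.18, adjusted p = 0.00568). Transcripts of division were still present at 7 DPP, with Mki67, the gene of the proliferation marker Ki-67, at 38.1 and 36.1. Over the leave-outs the number that fell ranged from 9 (without culture 1 at 7 DPP) to 26 in the S phase list and from 12 (without culture 1 at 7 DPP) to 24 in the M phase list. The medians stayed at -0.92 to -0.70 and -0.94 to -0.76.

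The promoters of these genes were searched for letters known from cell cycle genes. The 250 bases before the RefSeq start (GRCm38.p6) were searched on both strands for GCGGGAA, the core of an E2F site, for TTTGAA, the core of the cell cycle genes homology region, and for CCAAT, the box bound by NF-Y. None of these strings contains another, and each was counted on its own. GCGGGAA was found in 9 of 26 S phase genes with a promoter entry (34.6%) against 8.03% of 10034 genes tested with an entry. TTTGAA was found in 8 of 28 M phase genes (28.6%) against 12.9% of all, and CCAAT in 22 of 28 M phase genes (78.6%) against 40.6%. A match is a description of the letters and not a site in use. Windows of 60 bases from genes that fell are shown, read 5′ to 3′ on the strand of the gene, with the E2F core in capitals in Cdc6 and Uhrf1 (either strand) and the homology region core in capitals in Cdk1 and Ube2c (either strand).
Cdc6 (chr11:98907985-98908044, plus strand): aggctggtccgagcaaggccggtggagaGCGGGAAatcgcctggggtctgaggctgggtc
Uhrf1 (chr17:56303261-56303320, plus strand): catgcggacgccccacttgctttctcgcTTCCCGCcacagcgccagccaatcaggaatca
Cdk1 (chr10:69352913-69352972, minus strand): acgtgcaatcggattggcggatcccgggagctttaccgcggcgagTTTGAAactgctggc
Ube2c (chr2:164769869-164769928, plus strand): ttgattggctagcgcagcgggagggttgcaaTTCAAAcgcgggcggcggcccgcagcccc
Distances are from the RefSeq start, which can lie inside the GENCODE interval of a gene. The Cdk1 core lies 15 to 10 bases and the Ube2c core 29 to 24 bases before the start, and the Cdk1 window also carries a CCAAT box on the opposite strand, 48 to 44 bases before it.

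**Figure D2:**
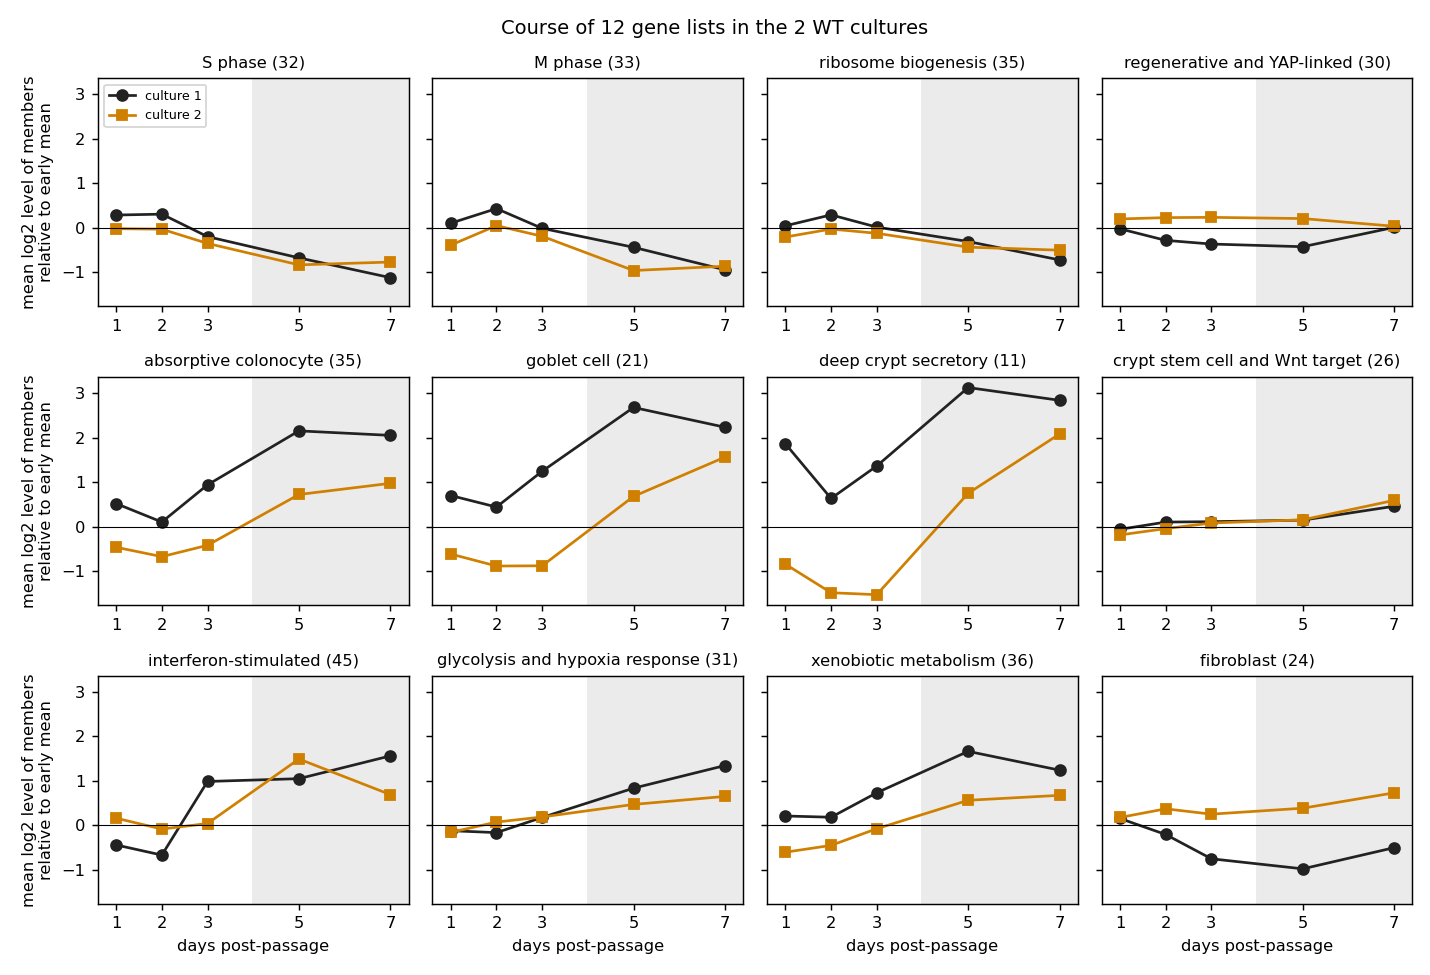
Mean log2 level of the members of 12 gene lists in each WT library relative to their early mean, against days post-passage, with culture 1 as black circles, culture 2 as orange squares, the late phase shaded and the number of genes in brackets. S phase, M phase and ribosome biogenesis genes decline after 2 DPP in both cultures, secretory and absorptive lists rise with culture 1 above culture 2, and the fibroblast list falls in culture 1 and not in culture 2.

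Part of the genes of growth fell as well. Of the ribosome biogenesis list, which holds factors that make and process ribosomal RNA, 16 of 35 fell and none rose (median -0.50). Nop58 (chr1:59684971-59719044), a core protein of small nucleolar particles, was at 429.5, 493 and 301 early and 261 and 169 late in culture 1. Culture 2 had 365, 401 and 267 early and 247 and 177 late. In Nop58 every late library lay below every early one (log2 FC -0.81 ± 0.19, adjusted p = 0.0257 [0.0172 to 0.0846, 5 lost, culture 1 at 7 DPP]). Wdr12, an assembly factor of the large subunit, fell from 46.9 ± 10.3 to 26.2 ± 3.25 (log2 FC -0.79 ± 0.17, adjusted p = 0.019 [0.0183 to 0.0622, 3 lost, culture 1 at 7 DPP]). Rrp9, which processes the small subunit, fell likewise (log2 FC -0.90 ± 0.26, adjusted p = 0.0463 [0.0453 to 0.0921, 9 lost, culture 1 at 7 DPP]), and so did Utp20 (log2 FC -0.80 ± 0.20, adjusted p = 0.0336 [0.0142 to 0.0964, 7 lost, culture 1 at 7 DPP]). Myc, the transcription factor known to drive these genes, was at 116 ± 7.60 early against 93.3 ± 10.2 late and did not pass the test (log2 FC -0.32 ± 0.10, adjusted p = 0.0649), though it did, as lower late, after median-of-ratios rescaling and at equal sums. Of the list of chaperonins and cytosolic chaperones 7 of 22 fell (31.8%, against 4.19% of all genes), with a median of -0.39. They were led by Hsph1 (log2 FC -1.16 ± 0.18, adjusted p = 0.00568) and the inducible Hsp90 gene Hsp90aa1 (log2 FC -0.83 ± 0.17, adjusted p = 0.0144), each with every late library below every early one. Next came the mitochondrial co-chaperonin gene Hspe1 (log2 FC -0.62 ± 0.15, adjusted p = 0.0276 [0.0292 to 0.0698, 5 lost, culture 2 at 7 DPP]). The Hsp90 activator gene Ahsa1 fell as well (log2 FC -0.58 ± 0.15, adjusted p = 0.0312 [0.0256 to 0.0841, 6 lost, culture 1 at 7 DPP]). The chaperone genes that fell were 11 when libraries were scaled to equal sums and 13 with day as a factor. Over the leave-outs, 2 (without culture 1 at 7 DPP) to 16 ribosome biogenesis genes and 2 (without culture 1 at 7 DPP) to 8 chaperone genes fell.

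In the unfolded protein response list 2 of 25 genes rose (8%) and 3 fell (12%), against 7.22% and 4.19% of all genes. The endoplasmic reticulum chaperone Hspa5 fell (log2 FC -0.52 ± 0.14, adjusted p = 0.0337 [0.0186 to 0.107, 8 lost, culture 1 at 7 DPP]). So did the secreted stress factor Manf (log2 FC -0.60 ± 0.14, adjusted p = 0.0215 [0.0092 to 0.0584, 5 lost, culture 1 at 7 DPP]) and the disulfide isomerase Pdia6 (log2 FC -0.47 ± 0.13, adjusted p = 0.0402 [0.0308 to 0.123, 7 lost, culture 1 at 7 DPP]). In the other direction, Ern2, the stress sensor of mucus-secreting cells, rose from 2.76 ± 2.43 to 10.8 ± 8.29 (log2 FC 1.68 ± 0.38, adjusted p = 0.0216 [0.0166 to 0.0688, 3 lost, culture 2 at 7 DPP]). The transcription factor gene Creb3l4 rose from 0.931 ± 0.469 to 4.50 ± 2.33 (log2 FC 1.44 ± 0.34, adjusted p = 0.0246 [0.0248 to 0.0815, 4 lost, culture 2 at 7 DPP]). The other 20 of 25 genes did not pass the test, and the median was -0.29. Over the leave-outs 0 (in 3 of the leave-outs) to 2 rose and 0 (in 5 of the leave-outs) to 4 fell, and without the culture block 1 rose and 1 fell, with Ern2, Hspa5 and Pdia6 no longer called. With libraries scaled to equal sums 5 fell, and with day as a factor 6. None of the 26 genes of the amino acid response and serine synthesis list was called (median -0.02), while 2 rose with day as a factor or without either one of the 3 DPP libraries, and 1 fell, at a median of -0.3, without 1 DPP. Of 36 respiratory chain genes 1 was (2.78%, against 4.19% of all genes lower). This was the cytochrome c gene Cycs, which fell (log2 FC -0.72 ± 0.16, adjusted p = 0.0181 [0.0125 to 0.061, 2 lost, culture 1 at 7 DPP]). The median of that list was 0.02, which was -0.06 when libraries were scaled to equal sums.

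Among called genes with no overlap between the phases and an early mean of at least 5, the 4 largest falls were in genes of stratified, cornifying epithelium or other epithelia than that of the colon. Krt90 (chr15:101552356-101562950), a type II keratin, was at 70.8, 108 and 37.1 early and 0.821 and 1.02 late in culture 1. Culture 2 had 18.2, 38.2 and 22.4 early and 1.30 and 0.197 late. For Krt90 every late library lay below every early one (log2 FC -4.55 ± 0.36, adjusted p = 0.000343). Krt27, a type I keratin known from hair follicles, was at 35.9, 45.8 and 9.81 early and 1.89 and 3.09 late in culture 1. Culture 2 had 30.4, 49 and 17.9 early and 4.88 and 0.679 late, and every late library lay below every early one (log2 FC -3.12 ± 0.47, adjusted p = 0.00568). Aldh3a1, an aldehyde dehydrogenase abundant in the cornea, was at 38.4 ± 21 early against 3.72 ± 2.97 late (log2 FC -3.09 ± 0.42, adjusted p = 0.00403). Cnfn, a cornified envelope protein, was at 16.6 ± 16.3 early against 0.320 ± 0.640 late (log2 FC -3.28 ± 0.64, adjusted p = 0.0124 [0.0105 to 0.0502, 1 lost, culture 1 at 7 DPP]), and 3 of its 4 late values were 0. All 4 were highest at 2 DPP in both cultures, at 108 and 38.2 for Krt90 and 44.1 and 28.6 for Cnfn. The summed level of the cornified envelope and stratified keratin list went the other way, from 6689 to 24545 early to 21230 to 44269 late, and was mostly Sprr2a2 (12490 ± 6214 early against 30210 ± 9306 late). By genes, 7 of 29 fell (24.1%, against 4.19% of all genes) and 3 rose (10.3%, against 7.22%), with a median of -0.57. The genes that rose were the desmosomal cadherin Dsc2 (log2 FC 1.06 ± 0.20, adjusted p = 0.0117) and 2 copies of the small proline-rich gene Sprr2a. They were Sprr2a3 (log2 FC 1.50 ± 0.32, adjusted p = 0.0174 [0.00735 to 0.061, 1 lost, culture 1 at 7 DPP]) and Sprr2a2 (log2 FC 1.40 ± 0.38, adjusted p = 0.0408 [0.0155 to 0.102, 7 lost, culture 2 at 5 DPP]), between which reads can be exchanged because the copies are nearly identical. Without culture 1 at 7 DPP 3 genes of the list fell and 1 rose, and without the culture block Sprr2a2 was not called.

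Genes tied to epithelial regeneration and to the Hippo effector YAP had few calls: 3 of 30 rose (10%) and 2 fell (6.67%), against 7.22% and 4.19% of all genes, and the median was -0.18. Anxa1, the annexin A1 gene of wound and fetal-like epithelium, was at 4398, 3045 and 2536 early and 1681 and 1610 late in culture 1. Culture 2 had 4009, 5069 and 4977 early and 3332 and 2478 late. For Anxa1 the groups overlapped over both cultures, while within each culture both late libraries lay below the 3 early ones (log2 FC -0.84 ± 0.17, adjusted p = 0.0138 [0.0104 to 0.0534, 1 lost, culture 1 at 7 DPP]). The calcium-binding S100a11 also fell (log2 FC -0.50 ± 0.12, adjusted p = 0.0293 [0.0244 to 0.0862, 6 lost, culture 1 at 5 DPP]). In the other direction, Clu, the clusterin gene of injury-induced stem cells, was at 549.5, 285 and 265 early and 593 and 1485 late in culture 1. Culture 2 had 1989, 1507 and 1341 early and 2930 and 3462 late. For Clu the groups overlapped over both cultures, while within each culture both late libraries lay above the 3 early ones (log2 FC 1.22 ± 0.28, adjusted p = 0.0228 [0.0224 to 0.0612, 3 lost, culture 1 at 7 DPP]), and its level was higher in culture 2 than in culture 1 on each day. Ly6d rose too (log2 FC 1.15 ± 0.29, adjusted p = 0.0304 [0.014 to 0.0933, 7 lost, culture 1 at 7 DPP]). Tm4sf4, a tetraspanin-like gene at a low level, rose from 0.845 ± 0.871 to 3.31 ± 1.08 (log2 FC 1.31 ± 0.37, adjusted p = 0.045 [0.0194 to 0.125, 9 lost, culture 1 at 5 DPP]). Ly6a, the gene of the surface antigen Sca-1, was at 2568 ± 242 early against 2440 ± 684 late with a log2 fold change of -0.11 ± 0.15 (adjusted p = 0.676). Fibroblasts also express several genes of this list, and the summed fibroblast markers, like Clu, were higher in culture 2 on each day, but their part in these values was not tested. None of the list rose without culture 1 at 2 DPP or without culture 2 at 7 DPP, and none rose or fell without culture 1 at 7 DPP. With no culture block 2 rose and none fell, and Clu, Anxa1 and S100a11 were not called. Falls were more frequent under other settings, with 2 rising and 6 falling at equal sums, 3 and 4 after median-of-ratios rescaling and 4 and 7 with day as a factor.

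Stress-linked genes moved singly. Of the immediate early list 3 of 27 rose and 2 fell (median 0.11, which was -0.11 without culture 1 at 7 DPP). Rhob, a small GTPase induced by growth factors and stress, was at 20.2, 11.5 and 19 early and 47.5 and 189.5 late in culture 1. Culture 2 had 41.6, 17.9 and 29.4 early and 76.7 and 136 late, and every late library lay above every early one (log2 FC 2.15 ± 0.39, adjusted p = 0.00969). The antiproliferative gene Btg2 rose as well (log2 FC 1.02 ± 0.24, adjusted p = 0.0256 [0.0119 to 0.0862, 3 lost, culture 1 at 7 DPP]). Of the AP-1 subunits, Jun rose from 25.3 ± 7.06 to 65.1 ± 18.9 (log2 FC 1.33 ± 0.23, adjusted p = 0.00937) and Fosl1 fell from 45.9 ± 17.8 to 18 ± 3.67 (log2 FC -1.22 ± 0.31, adjusted p = 0.0318 [0.00728 to 0.083, 8 lost, culture 2 at 5 DPP]). The ERK phosphatase gene Dusp5 fell (log2 FC -1.35 ± 0.36, adjusted p = 0.0369 [0.016 to 0.102, 8 lost, culture 1 at 5 DPP]). Among 24 p53 targets, the apoptosis effector Bax fell (log2 FC -0.78 ± 0.21, adjusted p = 0.0393 [0.0357 to 0.0853, 8 lost, culture 1 at 2 DPP]). The kinase Plk2 fell (log2 FC -0.68 ± 0.19, adjusted p = 0.046 [0.0288 to 0.126, 8 lost, culture 1 at 5 DPP]) and Trp53inp1 rose (log2 FC 1.24 ± 0.33, adjusted p = 0.0387 [0.0125 to 0.103, 7 lost, culture 1 at 7 DPP]). Among 26 NRF2 targets and metallothioneins, the glutathione transferase Gsta3 rose (log2 FC 2.10 ± 0.51, adjusted p = 0.0274 [0.00577 to 0.072, 7 lost, culture 2 at 7 DPP]). Its relative Gstm3 rose as well (log2 FC 1.49 ± 0.36, adjusted p = 0.0276 [0.0183 to 0.0843, 6 lost, culture 2 at 7 DPP]). The transaldolase Taldo1 rose (log2 FC 0.37 ± 0.09, adjusted p = 0.0318 [0.0235 to 0.0899, 8 lost, culture 2 at 7 DPP]) and the peroxiredoxin Prdx1 fell (log2 FC -0.38 ± 0.11, adjusted p = 0.0475 [0.044 to 0.141, 9 lost, culture 1 at 7 DPP]). The rises were 11.1% of the immediate early, 4.17% of the p53 and 11.5% of the NRF2 list and the falls 7.41%, 8.33% and 3.85%, against 7.22% and 4.19% of all genes. Of the genes named here Dusp5, Plk2, Gsta3, Taldo1 and Prdx1 were not called without the culture block. The medians of the p53 and NRF2 lists were -0.05 and -0.03. Over the leave-outs, 2 (in 3 of the leave-outs) to 5 genes rose and 0 (in 8 of the leave-outs) to 2 fell in the immediate early list. In the p53 list 0 (in 7 of the leave-outs) to 1 rose and 0 (in 6 of the leave-outs) to 2 fell, and in the NRF2 list 0 (in 5 of the leave-outs) to 3 rose and 0 (in 8 of the leave-outs) to 2 fell.

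Genes of the absorptive colonocyte rose. Of this list 19 of 35 rose and none fell, with a median log2 fold change of 1.10 (1.31 in culture 1 and 0.98 in culture 2), and 10 (without culture 1 at 7 DPP) to 20 rose with 1 library left out in turn. Without the culture block 12 rose, and Car1 and Cyp2c55 were not called. Lypd8 (chr11:58379043-58390728), a secreted protein that keeps flagellated bacteria away from the epithelium, was at 354, 72.2 and 427 early and 2447 and 6760 late in culture 1. Culture 2 had 113, 11.1 and 33.1 early and 842 and 1224 late. For Lypd8 every late library lay above every early one (log2 FC 4.50 ± 0.65, adjusted p = 0.00484), the largest rise among all genes ranked. Muc13 (chr16:33794037-33819934), a membrane mucin of the apical surface, was at 61.7, 34 and 90.2 early and 341 and 673 late in culture 1. Culture 2 had 8.31, 2.26 and 7.35 early and 76.4 and 164 late. In Muc13 the groups overlapped over both cultures, while within each culture both late libraries lay above the 3 early ones (log2 FC 3.60 ± 0.41, adjusted p = 0.00227). Car1, a colonic carbonic anhydrase, was at 44.8, 115 and 279 early and 789 and 348 late in culture 1. Culture 2 had 1.89, 4.98 and 4.0 early and 130.1 and 196 late. For Car1 the groups overlapped over both cultures, while within each culture both late libraries lay above the 3 early ones (log2 FC 3.69 ± 0.64, adjusted p = 0.00864). The same held for the cytochrome P450 gene Cyp2c55 (log2 FC 3.56 ± 0.58, adjusted p = 0.00697), whose mean went from 13.2 ± 22.7 to 92.9 ± 113 and which peaked at 5 DPP in culture 1. Lypd8 and these last 3 genes stood higher in culture 1 than in culture 2 on each day.

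Other genes known from mature surface colonocytes did not pass the test, and are named here after their values were seen. The chloride exchanger Slc26a3 was at 2.21 ± 2.15 early against 2.40 ± 3.65 late (log2 FC -0.07 ± 0.52, adjusted p = 0.944). The water channel Aqp8 was at 1.60 ± 1.47 early against 4.57 ± 5.26 late (log2 FC 0.79 ± 0.36, adjusted p = 0.175). The membrane carbonic anhydrase Car4 was at 1.05 ± 1.18 early against 2.93 ± 4.03 late (log2 FC 0.62 ± 0.56, adjusted p = 0.499), so that all 3 were low in both phases. Krt20, a keratin of the upper crypt, was well expressed and at 238 ± 145 early against 266 ± 191 late (log2 FC 0.18 ± 0.52, adjusted p = 0.846). Car2, a carbonic anhydrase that the study followed, was at 146 ± 83.3 early against 279.7 ± 125 late (log2 FC 1.05 ± 0.40, adjusted p = 0.108), and was called higher with day as a factor and without culture 2 at 3 DPP.

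The brush border list, which holds the proteins that build and link microvilli, rose in 9 of 22 genes and fell in 1 (median 0.65). Myo1a, the motor that ties the membrane to the microvillar core, was at 18.1, 22.8 and 45.4 early and 121 and 61.4 late in culture 1. Culture 2 had 2.71, 5.54 and 5.18 early and 26.6 and 35 late. In Myo1a the groups overlapped over both cultures, while within each culture both late libraries lay above the 3 early ones (log2 FC 2.11 ± 0.32, adjusted p = 0.00565). The intermicrovillar adhesion gene Ush1c rose from 6.58 ± 7.97 to 40.4 ± 21 (log2 FC 2.73 ± 0.40, adjusted p = 0.0052). Its partner Cdhr5 rose from 37.4 ± 28.3 to 157 ± 112 (log2 FC 2.08 ± 0.18, adjusted p = 0.000606). Ezr, the ezrin gene, which links membrane and actin, was the gene that fell, from 589 ± 104 to 384 ± 47.7 (log2 FC -0.61 ± 0.15, adjusted p = 0.0272 [0.0134 to 0.0828, 5 lost, culture 2 at 7 DPP]). Over the leave-outs 5 (without culture 1 at 7 DPP) to 10 genes of the list rose. The culture block carried much of this count: without it 3 rose, and Myo1a and Cdhr5 were not called.

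Letters of the sites of HNF4 and CDX, transcription factors of the intestinal epithelium, were sought in the promoters of the absorptive list in the same way. CAAAGTCCA, a core of the HNF4 site, was found in 2 of 27 (7.41%) with an entry against 0.399% of all genes tested with one, and TTTATNG, a core of the CDX site, in 5 of 27 (18.5%) against 7.63%. The strings do not contain each other. Windows are shown for 2 genes with large rises, Muc13 and Ceacam20, an adhesion gene of microvilli (log2 FC 3.37 ± 0.49, adjusted p = 0.00498). Capitals mark the HNF4 letters in Muc13, on the opposite strand 186 to 178 bases before the RefSeq start, which lies inside the GENCODE interval of Muc13 given above. In Ceacam20 they mark the CDX letters, on its own strand 186 to 180 bases before the start.
Muc13 (chr16:33794277-33794336, plus strand): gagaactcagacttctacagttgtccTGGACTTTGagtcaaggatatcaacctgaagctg
Ceacam20 (chr7:19965198-19965257, plus strand): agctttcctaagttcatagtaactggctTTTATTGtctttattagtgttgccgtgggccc

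**Figure D3:**
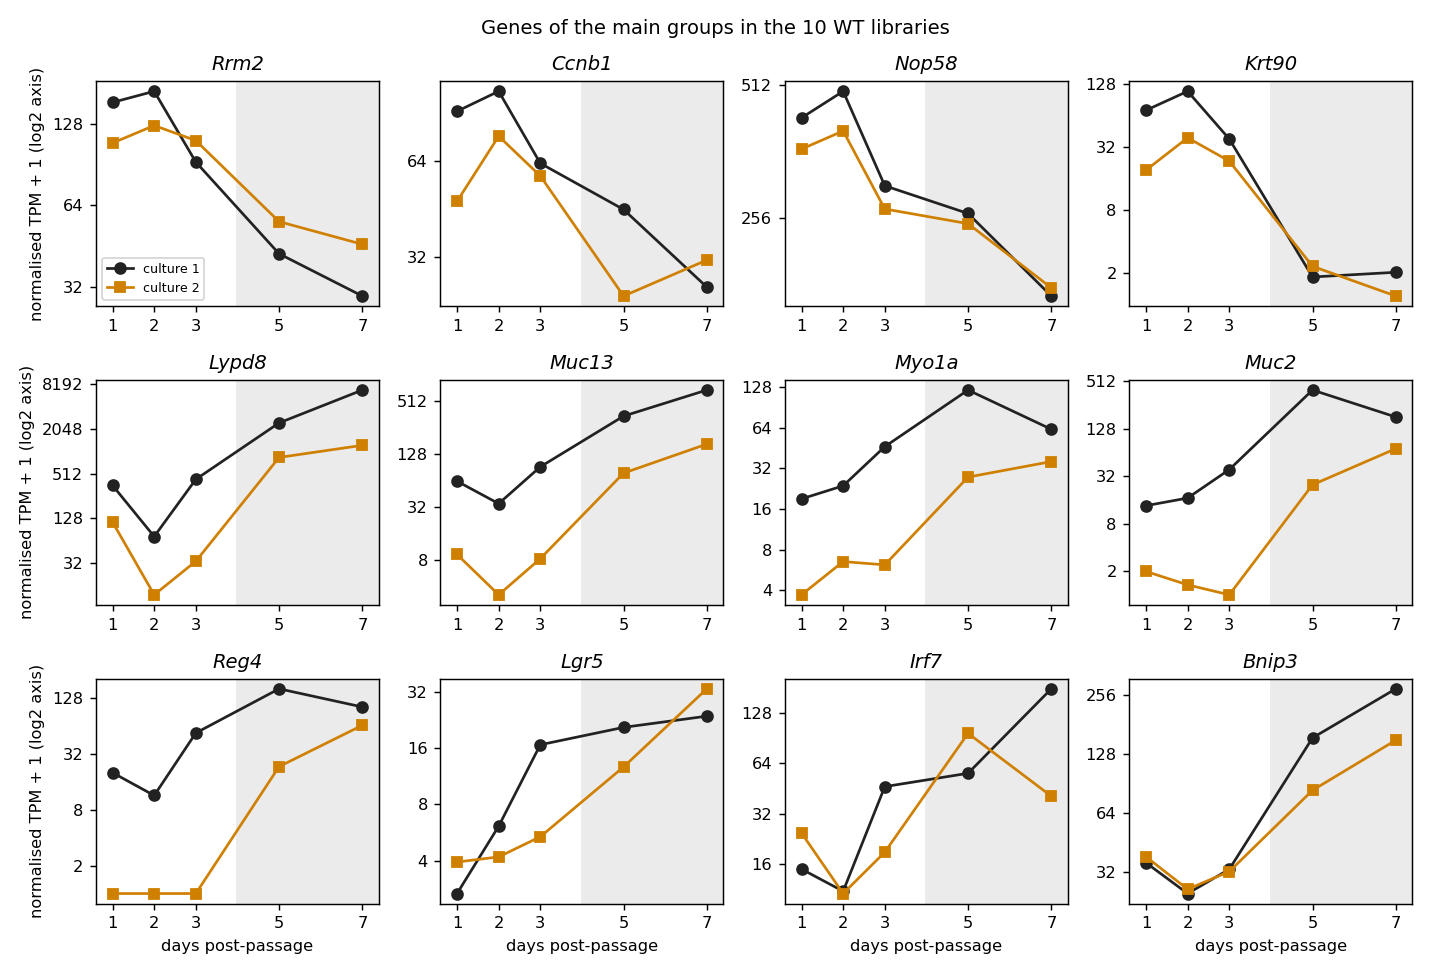
Level of 12 genes in each WT library as normalised TPM + 1 on a log2 axis against days post-passage, with culture 1 as black circles, culture 2 as orange squares and the late phase shaded. Rrm2, Ccnb1, Nop58 and Krt90 end below their early levels in both cultures, and the other 8 genes end above them, with Muc2, Reg4, Muc13 and Myo1a starting lower in culture 2.

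Genes of goblet and deep crypt secretory cells rose as well, among them Muc2 and Reg4 from levels near 0 in culture 2. Of the goblet cell list 12 of 21 rose and 1 fell, with a median of 1.53 (1.92 in culture 1 and 1.29 in culture 2). Muc2 (chr7:141690340-141754693), the gel-forming mucin of colonic mucus, was at 12.5, 15.9 and 37.8 early and 396 and 179 late in culture 1. Culture 2 had 0.979, 0.338 and 0 early and 23.9 and 70.5 late. For Muc2 the groups overlapped over both cultures, while within each culture both late libraries lay above the 3 early ones (log2 FC 4.31 ± 0.43, adjusted p = 0.00146). Fcgbp, a mucus protein that binds to this mucin, was at 33.5, 11.5 and 19.6 early and 188 and 182 late in culture 1. Culture 2 had 3.84, 2.02 and 2.75 early and 21.8 and 92.8 late, and the groups overlapped over both cultures, while within each culture both late libraries lay above the 3 early ones (log2 FC 3.38 ± 0.38, adjusted p = 0.00227). Tff3, the trefoil peptide of goblet cells, rose with them (log2 FC 4.01 ± 0.98, adjusted p = 0.0276 [0.0188 to 0.0817, 5 lost, culture 2 at 7 DPP]). So did Agr2, the disulfide isomerase needed to fold mucin (log2 FC 3.63 ± 0.91, adjusted p = 0.0299 [0.0109 to 0.0888, 7 lost, culture 2 at 7 DPP]). Gcnt3, a glycosyltransferase that branches mucin sugars, fell from 55.9 ± 9.78 to 33.6 ± 7.51 (log2 FC -0.72 ± 0.16, adjusted p = 0.0202 [0.0105 to 0.0651, 3 lost, culture 2 at 7 DPP]). The goblet list kept its median between 1.42 and 1.97 with 1 library left out, but its number of rises ranged from 4 (without culture 2 at 7 DPP) to 14, and was 5 without the culture block, where Tff3 and Agr2 were not called.

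Deep crypt secretory cells, which lie between the stem cells of the colon, were marked by 11 genes, of which 6 rose (median 2.43, the highest of all lists). Reg4 (chr3:98222156-98236748), a lectin and the standard marker of these cells, was at 19, 10.3 and 52.4 early and 159 and 101 late in culture 1. Culture 2 had 0, 0 and 0 early and 22.2 and 63.6 late. Reg4 was listed at 0 in the 3 early libraries of culture 2, and the groups overlapped over both cultures, while within each culture both late libraries lay above the 3 early ones (log2 FC 3.87 ± 0.59, adjusted p = 0.00568). Oit1 was at 34.5 ± 44 early against 192 ± 114 late (log2 FC 2.93 ± 0.45, adjusted p = 0.00568) and Sval1 at 16.7 ± 21.4 early against 127 ± 91.8 late (log2 FC 3.87 ± 0.58, adjusted p = 0.00565). Lyz1, a lysozyme gene that shares much of its sequence with Lyz2, rose as well (log2 FC 3.11 ± 0.73, adjusted p = 0.024 [0.0175 to 0.0615, 5 lost, culture 2 at 7 DPP]). Of 14 enteroendocrine genes tested 3 rose (21.4%, against 7.22% of all genes). The hormone gene Pyy went from 15 ± 14.2 to 138 ± 109.8 (log2 FC 3.07 ± 0.70, adjusted p = 0.0228 [0.0122 to 0.0749, 3 lost, culture 1 at 7 DPP]). The others were the granins Chgb (log2 FC 2.10 ± 0.45, adjusted p = 0.0183 [0.0168 to 0.0616, 2 lost, culture 1 at 7 DPP]) and Chga (log2 FC 1.88 ± 0.49, adjusted p = 0.0337 [0.0122 to 0.102, 6 lost, culture 1 at 7 DPP]). None of the 7 tuft cell genes tested, of 20 listed, was called (median 0.28, and -0.04 to 0.36 over the leave-outs), while 1 fell with day as a factor, after median-of-ratios rescaling, at equal sums and without culture 1 at 3 DPP or at 7 DPP. The number of deep crypt genes that rose ranged from 4 (in 4 of the leave-outs) to 6 and that of enteroendocrine genes from 0 (without culture 1 at 7 DPP) to 4 with 1 library left out, and without the culture block 2 and 0 rose, so that Reg4, Sval1, Lyz1, Pyy, Chgb and Chga were not called.

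Markers of stem cells rose in part. Of the crypt stem cell and Wnt target list 6 of 26 rose (23.1%, against 7.22% of all genes) and none fell (median 0.36). With day as a factor 7 rose and 2 fell, and without culture 1 at 3 DPP 5 rose and 1 fell. Lgr5 (chr10:115450311-115587780), the R-spondin receptor that marks cycling crypt stem cells, was at 1.66, 5.12 and 15.7 early and 19.7 and 22.8 late in culture 1. Culture 2 had 2.93, 3.19 and 4.37 early and 11.7 and 32.3 late. For Lgr5 the groups overlapped over both cultures, while within each culture both late libraries lay above the 3 early ones (log2 FC 1.99 ± 0.45, adjusted p = 0.0219 [0.00413 to 0.0693, 2 lost, culture 2 at 7 DPP]). Smoc2, a matrix protein of the same cells, was at 3.17, 3.91 and 8.39 early and 12.1 and 14.5 late in culture 1. Culture 2 had 0, 0.470 and 0.765 early and 4.82 and 17.9 late, and the groups overlapped over both cultures, while within each culture both late libraries lay above the 3 early ones (log2 FC 2.12 ± 0.44, adjusted p = 0.0158). Ascl2, the transcription factor of the stem cell state, went from 2.49 ± 1.74 to 5.91 ± 1.94 (log2 FC 1.14 ± 0.33, adjusted p = 0.0481 [0.0421 to 0.14, 8 lost, culture 2 at 7 DPP]). Aqp4, a water channel, went from 1.19 ± 1.67 to 4.34 ± 3.19 (log2 FC 1.31 ± 0.35, adjusted p = 0.0368 [0.0182 to 0.109, 7 lost, culture 1 at 7 DPP]). Axin2, a direct Wnt target named here after its value was seen, was at 35.7 ± 12.7 early against 43 ± 3.11 late (log2 FC 0.33 ± 0.24, adjusted p = 0.39). Over the leave-outs 1 (without culture 1 at 7 DPP or culture 2 at 7 DPP) to 6 genes of the list rose, and without the culture block 3 did, with Smoc2, Ascl2 and Aqp4 no longer called.

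In the Notch pathway, through which neighbouring cells choose between absorptive and secretory fates, 4 of 17 genes rose (23.5%, against 7.22% of all genes) and none fell. The ligand Dll4 rose from 0.521 ± 0.586 to 4.12 ± 2.49 (log2 FC 1.69 ± 0.39, adjusted p = 0.0226 [0.0118 to 0.0766, 3 lost, culture 1 at 7 DPP]). The Notch-modifying glycosyltransferase Lfng rose from 5.61 ± 5.21 to 12.4 ± 2.44 (log2 FC 1.31 ± 0.38, adjusted p = 0.0488 [0.0104 to 0.138, 9 lost, culture 2 at 7 DPP]). The effector Hes1 rose from 57.4 ± 9.35 to 82.8 ± 6.33 (log2 FC 0.54 ± 0.14, adjusted p = 0.0355 [0.0257 to 0.0917, 8 lost, culture 2 at 5 DPP]) and Hes6, an inhibitor of Hes1, from 29 ± 16.9 to 65.1 ± 12.1 (log2 FC 1.28 ± 0.33, adjusted p = 0.0328 [0.00682 to 0.0932, 7 lost, culture 1 at 7 DPP]). Over the leave-outs 0 (in 3 of the leave-outs) to 5 genes of the list rose, and Lfng was not called without the culture block.

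In the BMP pathway, which promotes differentiation along the crypt, 2 of 22 genes rose and 2 fell. The ligand Bmp8b fell from 43.8 ± 7.37 to 20.9 ± 3.68 (log2 FC -1.03 ± 0.16, adjusted p = 0.00568). The target Id3 fell (log2 FC -0.91 ± 0.25, adjusted p = 0.039 [0.0138 to 0.0998, 8 lost, culture 2 at 5 DPP]) and the target Id2 rose (log2 FC 0.92 ± 0.26, adjusted p = 0.0452 [0.0459 to 0.13, 9 lost, culture 2 at 7 DPP]). The receptor Bmpr2 rose (log2 FC 0.68 ± 0.17, adjusted p = 0.0296 [0.0288 to 0.0935, 6 lost, culture 1 at 7 DPP]). In the TGF-beta pathway 3 of 22 rose and 2 fell. Itgb8, the integrin chain that releases TGF-beta from its latent form, rose from 4.21 ± 2.64 to 19.9 ± 5.40 (log2 FC 2.13 ± 0.37, adjusted p = 0.00858). The target Skil rose (log2 FC 0.79 ± 0.21, adjusted p = 0.0379 [0.028 to 0.104, 6 lost, culture 1 at 7 DPP]). Tgfbi (log2 FC -1.95 ± 0.54, adjusted p = 0.0433 [0.0211 to 0.117, 7 lost, culture 1 at 5 DPP]) and the co-receptor Tgfbr3 (log2 FC -0.93 ± 0.24, adjusted p = 0.0332 [0.0205 to 0.0882, 8 lost, culture 1 at 5 DPP]), genes that fibroblasts also express, fell. Among EGF family ligands, receptors and feedback genes 2 of 22 rose and 2 fell. The receptor Erbb3 rose from 21 ± 4.49 to 41.8 ± 12.9 (log2 FC 0.94 ± 0.17, adjusted p = 0.0104), and so did Erbb2 (log2 FC 0.57 ± 0.16, adjusted p = 0.0438 [0.029 to 0.123, 8 lost, culture 1 at 7 DPP]). The ligand Nrg1, known from mesenchymal cells, fell from 110.1 ± 45.3 to 53 ± 21.6 (log2 FC -1.07 ± 0.30, adjusted p = 0.045 [0.03 to 0.115, 7 lost, culture 1 at 5 DPP]), and the ERK target Etv4 fell (log2 FC -0.54 ± 0.13, adjusted p = 0.0303 [0.0296 to 0.0826, 6 lost, culture 2 at 7 DPP]). The rises were 9.09% of the BMP, 13.6% of the TGF-beta and 9.09% of the EGF list and the falls 9.09% of each, against 7.22% and 4.19% of all genes. Without the culture block Id3, Tgfbi, Erbb2, Nrg1 and Etv4 were not called. Over the leave-outs 0 (in 5 of the leave-outs) to 1 genes rose and 1 (in 8 of the leave-outs) to 3 fell in the BMP list. In the TGF-beta list 1 (without culture 1 at 2 DPP) to 3 rose and 0 (in 6 of the leave-outs) to 2 fell, and in the EGF list 1 (in 8 of the leave-outs) to 2 rose and 0 (in 5 of the leave-outs) to 4 fell.

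Interferon-stimulated genes rose without any interferon being named in the labels. Of this list 21 of 45 rose and none fell (median 1.19, 1.35 in culture 1 and 0.95 in culture 2). Ifi27l2b, an interferon-induced mitochondrial protein, was at 26.8, 17 and 50.03 early and 233 and 322 late in culture 1. Culture 2 had 14.7, 12.5 and 12 early and 89.2 and 47.2 late. For Ifi27l2b the groups overlapped over both cultures, while within each culture both late libraries lay above the 3 early ones (log2 FC 2.73 ± 0.31, adjusted p = 0.00227). Irf7 (chr7:141262706-141266481), the transcription factor that amplifies the interferon response, was at 13.9, 9.99 and 45.5 early and 54.9 and 178 late in culture 1. Culture 2 had 23.5, 9.64 and 17.8 early and 95.9 and 39.7 late. In Irf7 the groups overlapped over both cultures, while within each culture both late libraries lay above the 3 early ones (log2 FC 2.12 ± 0.47, adjusted p = 0.0209 [0.00966 to 0.0722, 2 lost, culture 1 at 7 DPP]). Its highest value was at 7 DPP in culture 1 but at 5 DPP in culture 2. Ifit1, which blocks translation of viral RNA, was at 5.34 ± 5.88 early against 22.4 ± 10.6 late (log2 FC 2.15 ± 0.54, adjusted p = 0.0299 [0.00636 to 0.1, 6 lost, culture 1 at 7 DPP]). Ifi44 was at 3.70 ± 2.92 early against 28.2 ± 15.2 late (log2 FC 2.79 ± 0.58, adjusted p = 0.0158 [0.00682 to 0.0589, 1 lost, culture 1 at 7 DPP]). The count of the list hung on single libraries, from 2 (without culture 1 at 7 DPP) to 31 with 1 left out in turn, while the median stayed between 0.98 and 1.39.

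The interferon-stimulated response element, searched on both strands as 2 copies of GAAA separated by any 2 bases, was found in 15 of 33 (45.5%) promoters of the list with an entry, against 3.20% of all. Windows from Ifit1, the signal transducer Stat2 (log2 FC 1.01 ± 0.20, adjusted p = 0.0138 [0.0104 to 0.0541, 1 lost, culture 1 at 7 DPP]) and Oas1a, a sensor of double-stranded RNA (log2 FC 1.48 ± 0.38, adjusted p = 0.032 [0.0139 to 0.105, 7 lost, culture 1 at 7 DPP]), are shown with the element in capitals. It lies on the opposite strand in Ifit1 and Stat2 and on the gene's own strand in Oas1a.
Ifit1 (chr19:34640779-34640838, plus strand): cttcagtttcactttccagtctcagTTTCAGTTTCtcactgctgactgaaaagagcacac
Stat2 (chr10:128270251-128270310, plus strand): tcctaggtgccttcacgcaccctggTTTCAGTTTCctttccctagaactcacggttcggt
Oas1a (chr5:120907526-120907585, minus strand): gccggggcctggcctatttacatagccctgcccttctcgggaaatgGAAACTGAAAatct
Oas1a is one of a cluster of close copies, and Ifi27l2b has one as well, with which reads may have been shared. The element starts 85 bases before the start in Ifit1, 222 in Stat2 and 14 in Oas1a, and the promoters of Ifit1 and Oas1a hold 2 copies each.

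Of 23 genes of antigen presentation 8 rose (34.8%, against 7.22% of all genes) and none fell (median 0.49). They were led by the class Ib genes H2-Q2 (log2 FC 1.99 ± 0.57, adjusted p = 0.0468 [0.022 to 0.15, 7 lost, culture 1 at 7 DPP]) and H2-Q1 (log2 FC 1.94 ± 0.36, adjusted p = 0.0111). H2-Q10 followed (log2 FC 1.65 ± 0.43, adjusted p = 0.0357 [0.0144 to 0.118, 6 lost, culture 1 at 7 DPP]), and reads may have been divided between these near-identical copies. H2-T23 went from 64.3 ± 11.5 to 148 ± 27.9 (log2 FC 1.19 ± 0.16, adjusted p = 0.00403). The number that rose ranged from 2 (in 3 of the leave-outs) to 10 with 1 library left out. Of 36 NF-kappaB targets and chemokines 5 rose (13.9%, against 7.22% of all genes) and none fell (median 0.19). Duox2, the oxidase that makes hydrogen peroxide at the epithelial surface, was at 2.21, 0.566 and 2.59 early and 14.7 and 46.2 late in culture 1. Culture 2 had 2.43, 0.893 and 0.485 early and 6.11 and 11.1 late. In Duox2 every late library lay above every early one (log2 FC 2.75 ± 0.43, adjusted p = 0.00635). Nos2, the inducible nitric oxide synthase, was at 1.52 ± 0.819 early against 11.6 ± 8.42 late (log2 FC 2.19 ± 0.38, adjusted p = 0.00858), with every late library above every early one. Pigr, which carries secretory antibodies across the epithelium, rose from 6.48 ± 6.79 to 64.7 ± 68.3 (log2 FC 2.96 ± 0.45, adjusted p = 0.00568). Ccl28, a chemokine of mucosal plasma cells, rose from 7.80 ± 8.08 to 33.4 ± 21.2 (log2 FC 2.25 ± 0.43, adjusted p = 0.0124). The number of rises in this list ranged from 4 (in 4 of the leave-outs) to 6 with 1 library left out. The NF-kappaB and antigen presentation lists had 2 and 4 rises without the culture block, where Pigr, Ccl28, H2-Q2 and H2-Q10 were not called. In the NF-kappaB list 10 rose and 2 fell with day as a factor. The haematopoietic markers summed to no more than 72.5, and their part in these values was not tested.

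Genes of glycolysis and of the response to low oxygen rose together: 15 of 31 were called, none fell, and all 31 had a positive fold change (median 0.76). Bnip3 (chr7:138890836-138909519), a hypoxia-induced protein that marks mitochondria for removal, was at 34.5, 23.7 and 31.9 early and 153 and 273 late in culture 1. Culture 2 had 37, 25 and 31 early and 82.1 and 149 late. For Bnip3 every late library lay above every early one (log2 FC 2.28 ± 0.26, adjusted p = 0.00227). Ankrd37, a direct target of the hypoxia factor HIF-1, was at 18.8, 10.3 and 17.6 early and 57.6 and 92.2 late in culture 1. Culture 2 had 4.46, 14.3 and 13.1 early and 34.7 and 41 late, and every late library lay above every early one (log2 FC 2.04 ± 0.30, adjusted p = 0.00526). The oxygen-sensing hydroxylase Egln3 rose from 66.6 ± 20.9 to 216 ± 138 (log2 FC 1.54 ± 0.33, adjusted p = 0.0179 [0.0148 to 0.0534, 2 lost, culture 1 at 7 DPP]). The aldolase Aldoc rose from 12.6 ± 8.80 to 39.4 ± 17.4 (log2 FC 1.74 ± 0.49, adjusted p = 0.0452 [0.0214 to 0.116, 8 lost, culture 1 at 5 DPP]). Aldoc was not called without the culture block. Over the leave-outs 4 (without culture 1 at 7 DPP) to 17 genes of the list rose, at medians of 0.58 to 0.91. The hypoxia response element, searched as TACGTG on both strands, was found in 6 of 29 (20.7%) promoters of the list with an entry against 3.80% of all. It is shown in capitals for Ankrd37, on its own strand 7 to 2 bases before the start. The other window is from Car9, the carbonic anhydrase induced by low oxygen (log2 FC 1.31 ± 0.35, adjusted p = 0.038 [0.00711 to 0.123, 8 lost, culture 1 at 7 DPP]), with the element on the opposite strand 18 to 13 bases before the start.
Ankrd37 (chr8:45999851-45999910, minus strand): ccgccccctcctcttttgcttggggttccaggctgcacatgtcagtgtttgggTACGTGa
Car9 (chr4:43506966-43507025, plus strand): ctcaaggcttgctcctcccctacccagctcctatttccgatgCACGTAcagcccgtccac
For the Myc-bound E-box CACGTG, which shares the letters ACGTG with this element, 1 of 30 (3.33%) promoters of the ribosome biogenesis list held a match against 9.74% of all.

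Other metabolic lists rose in part. Of 19 carbohydrate genes 4 rose (21.1%, against 7.22% of all genes), all with no call lost in any leave-out. The sodium-glucose transporter Slc5a1 went from 1.57 ± 2.23 to 13.9 ± 7.56 (log2 FC 2.70 ± 0.33, adjusted p = 0.00294) and the maltase Mgam from 25.3 ± 21.5 to 120.4 ± 58.7 (log2 FC 2.40 ± 0.39, adjusted p = 0.00678). The sorbitol dehydrogenase Sord went from 9.13 ± 6.78 to 32.6 ± 19.6 (log2 FC 1.74 ± 0.25, adjusted p = 0.00459). Of 34 genes of glycosphingolipid and glycan synthesis 9 rose (26.5%, against 7.22% of all genes) and none fell (median 0.42). They included the galactosyltransferase B3galt5 (log2 FC 2.10 ± 0.31, adjusted p = 0.00542) and the sialyltransferase St3gal4 (log2 FC 1.33 ± 0.16, adjusted p = 0.00294). The Sda antigen enzyme B4galnt2 (log2 FC 1.88 ± 0.42, adjusted p = 0.0205 [0.0172 to 0.0772, 2 lost, culture 1 at 7 DPP]) and the fatty acid hydroxylase Fa2h (log2 FC 1.65 ± 0.40, adjusted p = 0.0276 [0.0156 to 0.0988, 5 lost, culture 1 at 7 DPP]) rose too. Of 31 genes of fatty acid oxidation 8 rose (25.8%) and 1 fell (3.23%), against 7.22% and 4.19% of all genes (median 0.46). Ppargc1a, a coactivator of mitochondrial biogenesis, rose from 0.789 ± 0.705 to 5.51 ± 2.44 (log2 FC 1.85 ± 0.30, adjusted p = 0.00754). The acyl-CoA synthetase Acsl5 fell (log2 FC -0.70 ± 0.19, adjusted p = 0.0369 [0.0254 to 0.0988, 8 lost, culture 2 at 7 DPP]). Without the culture block the rises were 2 carbohydrate, 4 glycosphingolipid and 4 fatty acid oxidation genes, and Sord, B4galnt2, Fa2h and Acsl5 were not called. Over the leave-outs the number of rises ranged from 4 to 5 for carbohydrate genes, from 4 (without culture 1 at 5 DPP or culture 1 at 7 DPP) to 12 for glycosphingolipid genes and from 2 (without culture 1 at 7 DPP) to 10 for fatty acid oxidation.

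Of 36 genes of xenobiotic metabolism 12 rose (33.3%) and 1 fell (2.78%), against 7.22% and 4.19% of all genes (median 1.08). Over the leave-outs 10 (in 6 of the leave-outs) to 14 rose. The sulfotransferase Sult1b1 was at 7.14, 5.30 and 10.9 early and 57.3 and 86.4 late in culture 1. Culture 2 had 0.304, 1.22 and 1.32 early and 14 and 18.6 late. In Sult1b1 every late library lay above every early one (log2 FC 3.13 ± 0.25, adjusted p = 0.000343). The cytochrome P450 genes Cyp2s1, from 1.57 ± 1.49 to 20.7 ± 19.5 (log2 FC 2.70 ± 0.45, adjusted p = 0.0076), and Cyp2w1, from 0.654 ± 0.977 to 9.41 ± 4.91 (log2 FC 2.67 ± 0.37, adjusted p = 0.00435), rose beside Cyp2c55. The glutathione transferase Gstp1 fell (log2 FC -0.38 ± 0.11, adjusted p = 0.0454 [0.0331 to 0.129, 9 lost, culture 1 at 7 DPP]). Among 32 lysosomal and autophagy genes 4 rose, among them the protease Ctss (log2 FC 2.66 ± 0.34, adjusted p = 0.00366), the hexosaminidase Hexa (log2 FC 0.67 ± 0.12, adjusted p = 0.0093) and the sterol carrier Npc2 (log2 FC 0.65 ± 0.12, adjusted p = 0.0125). Among 21 tight junction genes 4 rose, led by the pore-forming claudin Cldn2, from 7.81 ± 3.81 to 32.9 ± 13.4 (log2 FC 1.96 ± 0.31, adjusted p = 0.00621). Of 25 cholesterol synthesis genes 3 rose, led by Tm7sf2 (log2 FC 0.89 ± 0.23, adjusted p = 0.0309 [0.0129 to 0.0885, 7 lost, culture 2 at 7 DPP]). Of 26 genes of fatty acid synthesis and lipid droplets 2 rose, the apolipoprotein Apoc2 (log2 FC 1.97 ± 0.33, adjusted p = 0.00783) and the droplet coat protein Plin3 (log2 FC 0.49 ± 0.13, adjusted p = 0.0387 [0.0254 to 0.11, 8 lost, culture 1 at 5 DPP]). The medians of these lists were 0.26 and 0.34. The rises were 12.5% of the lysosomal, 19% of the tight junction, 12% of the cholesterol and 7.69% of the fatty acid synthesis list, against 7.22% of all genes, so that the last stood at the share of all genes. Gstp1 and Apoc2 were not called without the culture block, and 2 tight junction genes and 1 fatty acid synthesis gene rose. The corresponding leave-out ranges were 3 (in 4 of the leave-outs) to 5 for lysosomal, 1 (without culture 1 at 7 DPP) to 5 for tight junction, 0 (in 6 of the leave-outs) to 5 for cholesterol and 1 (in 8 of the leave-outs) to 3 for fatty acid synthesis genes.

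Transcription factors were called higher more often than lower. Of 246 in the lists 203 were tested, of which 47 (23.2%) rose and 11 (5.42%) fell, against 7.22% and 4.19% of all genes, with a median log2 fold change of 0.31. Rises were most frequent among factors of intestinal identity and nuclear receptors, where 24 of 45 rose and none fell (median 0.75, 8 (without culture 1 at 7 DPP or culture 2 at 7 DPP) to 26 with 1 library left out). There 13 rose without the culture block, and Cdx1, described below, was not called. Vdr (chr15:97854425-97910630), the vitamin D receptor, was at 1.07, 1.46 and 3.84 early and 8.43 and 12.5 late in culture 1. Culture 2 had 0.406, 0.445 and 0.644 early and 2.97 and 6.37 late. For Vdr the groups overlapped over both cultures, while within each culture both late libraries lay above the 3 early ones (log2 FC 1.91 ± 0.31, adjusted p = 0.00678). Cdx1, a homeobox factor of the hindgut, went from 13.1 ± 12.8 to 57 ± 34.8 (log2 FC 2.40 ± 0.28, adjusted p = 0.00246), and the xenobiotic sensor Nr1i2 from 1.36 ± 1.92 to 10.4 ± 5.94 (log2 FC 2.40 ± 0.32, adjusted p = 0.00366). Creb3l3, a membrane-bound factor of lipid metabolism, rose to 13.6 ± 5.17 from 3.44 ± 3.63 (log2 FC 2.01 ± 0.54, adjusted p = 0.0385 [0.0159 to 0.121, 8 lost, culture 1 at 7 DPP]). Of factors named after their values were seen, Hnf4a, a nuclear receptor that sustains colonocyte genes, was at 61.7 ± 37.7 early against 170.3 ± 87.9 late (log2 FC 1.51 ± 0.26, adjusted p = 0.00832), while Cdx2, the relative of Cdx1, was at 4.93 ± 2.71 early against 5.55 ± 2.80 late (log2 FC 0.15 ± 0.27, adjusted p = 0.756). Hox genes record position along the body axis and were also singled out afterwards. Of the 10 in the lists 8 were called higher (80%, against 7.22% of all genes). Over all 10 the log2 fold changes ran from 0.02 to 1.66, with a median of 0.98. Hox genes outside the lists were not counted.

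Secretory lineage factors rose in 4 of 13 cases (30.8%, against 7.22% of all genes). Spdef, which drives goblet cell maturation, went from 1.49 ± 2.32 to 7.93 ± 3.89 (log2 FC 2.06 ± 0.45, adjusted p = 0.019 [0.00577 to 0.0641, 3 lost, culture 2 at 7 DPP]). Foxa3 (log2 FC 0.79 ± 0.21, adjusted p = 0.0399 [0.0182 to 0.112, 9 lost, culture 2 at 7 DPP]), Sox4 (log2 FC 1.25 ± 0.31, adjusted p = 0.0284 [0.0216 to 0.087, 4 lost, culture 1 at 7 DPP]) and Creb3l4, described above, were the others. Without culture 2 at 7 DPP none of them was called, and without the culture block Foxa3 was not. Atoh1, the master factor of the lineage, named after its value was seen, was at 0.278 ± 0.575 early against 2.14 ± 1.67 late and did not pass the test (log2 FC 1.22 ± 0.36, adjusted p = 0.0531). Factors of stem cells, Wnt and the cell cycle rose in 7 and fell in 7 of 42 cases (16.7% each, against 7.22% and 4.19% of all genes). The balance moved with the settings, with 5 rising and 9 falling at equal sums, 8 and 12 with day as a factor and 6 and 4 without the culture block. Foxm1 (chr6:128362967-128376146), the activator of mitotic genes, was at 21, 37.2 and 21.2 early and 10.2 and 9.62 late in culture 1. Culture 2 had 21, 22.1 and 19.8 early and 8.26 and 14 late. In Foxm1 every late library lay below every early one (log2 FC -1.09 ± 0.21, adjusted p = 0.0117). E2f7, of the same network, fell with it (log2 FC -1.09 ± 0.29, adjusted p = 0.0359 [0.0204 to 0.112, 7 lost, culture 1 at 7 DPP]), and so did Mybl2 (log2 FC -1.04 ± 0.23, adjusted p = 0.0205 [0.0142 to 0.063, 2 lost, culture 1 at 7 DPP]). In contrast Mycn, a relative of Myc at a low level, rose from 1.37 ± 0.578 to 6.57 ± 1.65 with every late library above every early one (log2 FC 1.69 ± 0.27, adjusted p = 0.00678). Mybl2 was not called without the culture block. Over the leave-outs 1 (without culture 1 at 7 DPP or culture 2 at 7 DPP) to 7 rose and 2 (without culture 1 at 7 DPP) to 8 fell.

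Factors of stress, regeneration and squamous epithelium rose in 4 and fell in 4 of 54 cases (7.41% each), against 7.22% and 4.19% of all genes, and 7 rose with day as a factor. Besides Jun and Fosl1, Cebpb (log2 FC -0.87 ± 0.24, adjusted p = 0.0448 [0.0142 to 0.117, 8 lost, culture 1 at 5 DPP]) and Cebpd (log2 FC -0.84 ± 0.22, adjusted p = 0.0347 [0.0185 to 0.102, 8 lost, culture 1 at 7 DPP]) fell. The hindlimb factor Pitx1 also fell (log2 FC -1.04 ± 0.29, adjusted p = 0.0448 [0.0104 to 0.129, 9 lost, culture 1 at 7 DPP]). The hypoxia factor Epas1 rose from 8.04 ± 3.57 to 18.3 ± 6.37 (log2 FC 1.12 ± 0.29, adjusted p = 0.0331 [0.0154 to 0.098, 7 lost, culture 1 at 7 DPP]). Klf10 (log2 FC 0.65 ± 0.16, adjusted p = 0.0285 [0.0281 to 0.083, 5 lost, culture 1 at 7 DPP]) and Nfe2l1 (log2 FC 0.59 ± 0.14, adjusted p = 0.0228 [0.0134 to 0.0665, 4 lost, culture 1 at 5 DPP]) rose as well. Cebpb, Pitx1 and Epas1 were not called without the culture block. Of 32 factors of interferon, inflammation and metabolism 5 rose (15.6%, against 7.22% of all genes). They included Irf9 (log2 FC 0.97 ± 0.23, adjusted p = 0.0234 [0.0138 to 0.0789, 5 lost, culture 1 at 7 DPP]), which together with Stat2 binds the response element shown above, as well as Stat2 and Irf7. Of 17 clock factors 3 rose (17.6%, against the same 7.22%). They included Npas2 (log2 FC 1.34 ± 0.28, adjusted p = 0.0152 [0.0178 to 0.0594, 2 lost, culture 1 at 7 DPP]) and Per2 (log2 FC 1.12 ± 0.22, adjusted p = 0.0124 [0.0136 to 0.0513, 1 lost, culture 1 at 7 DPP]). Over the leave-outs 1 (without culture 1 at 2 DPP or culture 2 at 7 DPP) to 6 stress factors rose and 0 (in 7 of the leave-outs) to 5 fell. Rises ranged from 1 (without culture 1 at 7 DPP) to 7 among interferon and inflammation factors and from 1 (without culture 1 at 7 DPP) to 4 among clock factors.

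**Figure D4:**
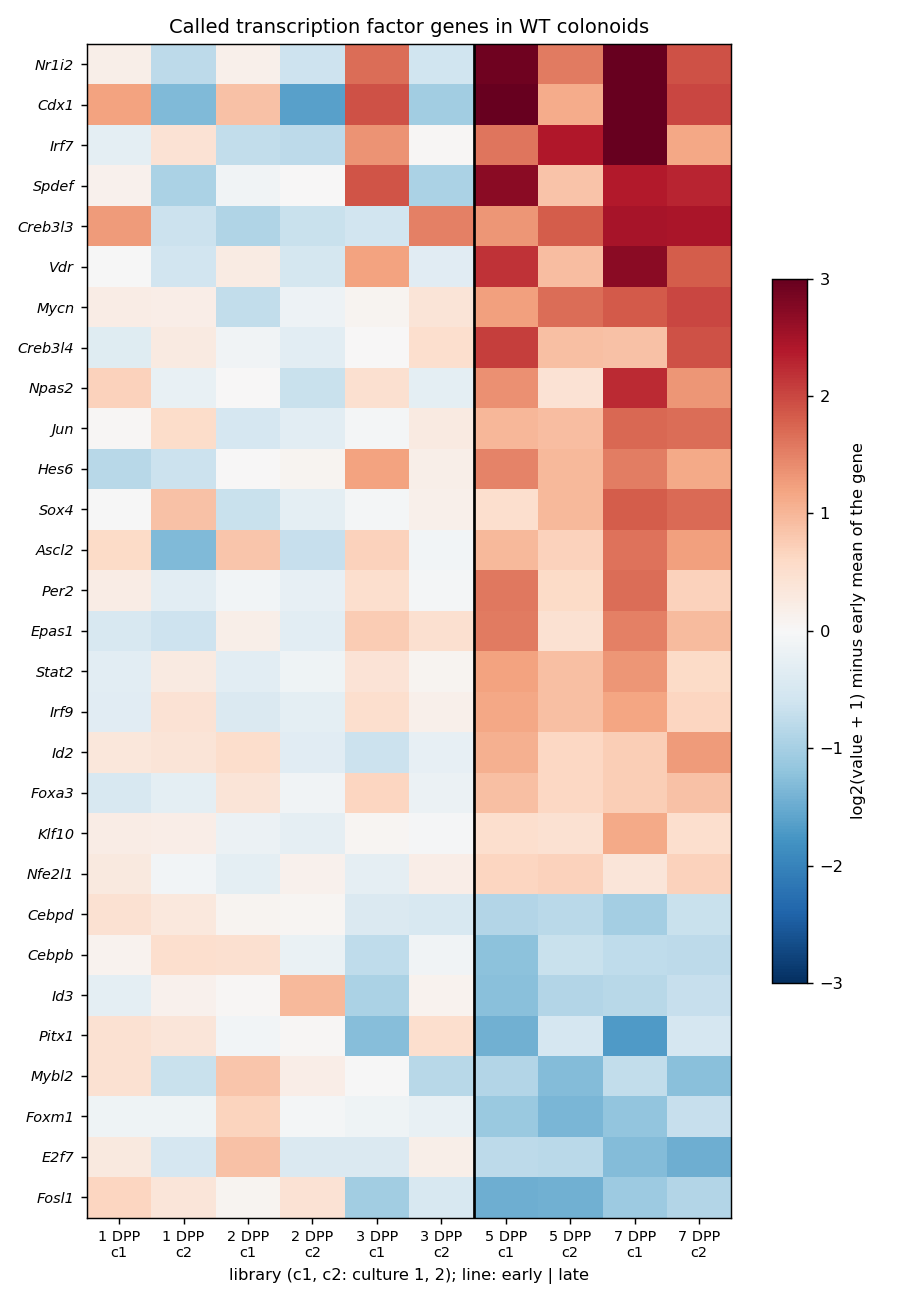
Log2 level (normalised TPM + 1) of 29 transcription factor genes that passed the test, in each of the 10 WT libraries, minus the mean of the 6 early libraries, with blue lower, red higher and colours clipped at ±3. The libraries of culture 1 and culture 2 are ordered by day, and the change of colour falls between 3 and 5 DPP in both, with 3 DPP of culture 1 already intermediate for several genes.

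The genes with the largest changes outside these lists were mixed in function. Ndufa4l2, a hypoxia-induced mitochondrial protein, was at 1.51, 0 and 3.10 early and 53.9 and 90.4 late in culture 1. Culture 2 had 1.73, 10.4 and 1.83 early and 17.1 and 43.8 late, and every late library lay above every early one (log2 FC 3.85 ± 0.62, adjusted p = 0.00678). Nox1, the NADPH oxidase of colonic epithelium, was at 2.39, 2.70 and 10.4 early and 40.2 and 61.6 late in culture 1. Culture 2 had 0.453, 0.286 and 1.48 early and 12.6 and 33.2 late, and again every late library lay above every early one (log2 FC 3.49 ± 0.40, adjusted p = 0.00227). The iron carrier transferrin, Trf, rose from 14.5 ± 12.5 to 162 ± 135 (log2 FC 3.30 ± 0.60, adjusted p = 0.0101), and the steroid dehydrogenase Hsd17b2 from 5.14 ± 6.50 to 38.4 ± 21.7 (log2 FC 3.00 ± 0.55, adjusted p = 0.0102). The ion transport regulator Fxyd4 rose from 6.54 ± 5.91 to 67 ± 72 (log2 FC 3.17 ± 0.76, adjusted p = 0.0268 [0.0217 to 0.0922, 3 lost, culture 1 at 7 DPP]). Slc17a4, of the phosphate transporter family, rose from 1.34 ± 1.79 to 17.5 ± 7.17 (log2 FC 3.15 ± 0.40, adjusted p = 0.00325). Clca4b (log2 FC 3.69 ± 0.54, adjusted p = 0.00484), Lrmp (log2 FC 3.45 ± 0.53, adjusted p = 0.00568) and Chodl (log2 FC 3.40 ± 0.72, adjusted p = 0.0178 [0.0049 to 0.0557, 1 lost, culture 2 at 7 DPP]) were among the 15 largest rises. Ctla2a (log2 FC 3.17 ± 0.39, adjusted p = 0.00294), Klk15 (log2 FC 3.29 ± 0.59, adjusted p = 0.00958) and the proline-rich Prr9 (log2 FC 2.94 ± 0.55, adjusted p = 0.0111) were too, and Clca4b and Ctla2a have close copies with which reads may have been shared.

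Among the 15 largest falls besides the keratins, Pbp2, a phosphatidylethanolamine-binding protein, was at 22.2, 19.5 and 10.2 early and 3.55 and 0.552 late in culture 1. Culture 2 had 31.5, 27.5 and 14.9 early and 8.46 and 4.67 late, and every late library lay below every early one (log2 FC -2.23 ± 0.38, adjusted p = 0.00844). Spon2, a secreted matrix protein, fell from 35.6 ± 9.31 to 8.21 ± 3.08 (log2 FC -2.01 ± 0.24, adjusted p = 0.00278). Psca, a surface antigen of stratified and glandular epithelia, fell from 24.5 ± 12.1 to 5.23 ± 1.38 (log2 FC -1.93 ± 0.34, adjusted p = 0.00906), and the cGMP-dependent kinase Prkg2 from 19.8 ± 6.0 to 5.72 ± 0.953 (log2 FC -1.60 ± 0.23, adjusted p = 0.00459). Il5ra, a cytokine receptor known from eosinophils, was at 11.1 ± 3.16 early against 1.97 ± 1.26 late (log2 FC -2.08 ± 0.30, adjusted p = 0.00484). The suprabasal protein Sbsn (log2 FC -1.65 ± 0.42, adjusted p = 0.0316 [0.0109 to 0.0991, 6 lost, culture 1 at 7 DPP]) and the kallikrein Klk10 (log2 FC -2.62 ± 0.43, adjusted p = 0.00735) fell. S100a3 (log2 FC -1.72 ± 0.39, adjusted p = 0.0218 [0.0123 to 0.0644, 3 lost, culture 1 at 7 DPP]) and Klrg2 (log2 FC -1.70 ± 0.40, adjusted p = 0.0254 [0.0159 to 0.0749, 4 lost, culture 2 at 7 DPP]) were also among them. Syndig1 (log2 FC -1.90 ± 0.50, adjusted p = 0.0359 [0.0329 to 0.0959, 7 lost, culture 1 at 5 DPP]) and Fam177a (log2 FC -3.01 ± 0.73, adjusted p = 0.0277 [0.0183 to 0.0819, 5 lost, culture 2 at 7 DPP]) were the others. All of these had every late library below every early one, a condition of the ranking.

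Of 12 genes that the study followed in these or related samples, which were therefore not chosen independently of the data, 5 rose and 1 fell. The 5 were Muc2, Reg4, Lgr5, Clu and Ly6d, given above, and Mki67 fell from 63 ± 16.2 to 40.5 ± 9.78 (log2 FC -0.61 ± 0.15, adjusted p = 0.0319 [0.022 to 0.1, 5 lost, culture 1 at 7 DPP]). Without the culture block 3 of the 12 rose and none fell, with Reg4, Clu and Mki67 not called. With 1 library left out in turn 2 (without either one of the 7 DPP libraries) to 6 rose and 0 to 1 fell, and with day as a factor 6 rose and 1 fell. The gene of TNFR2, Tnfrsf1b, was at 14.9 ± 2.67 early against 15.9 ± 4.0 late (log2 FC 0.08 ± 0.19, adjusted p = 0.82). That of TNFR1, Tnfrsf1a, was at 124 ± 57.6 early against 135 ± 46.1 late (log2 FC 0.16 ± 0.37, adjusted p = 0.814). The cytokine gene Tgfb1 was at 36.4 ± 13.6 early against 32 ± 2.29 late (log2 FC -0.09 ± 0.26, adjusted p = 0.846). These 3 did not pass the test, and neither did Myc, Ly6a and Car2.

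The change from early to late was compared between the cultures by an interaction term. No gene of 13617 passed (limma, adjusted p of at least 0.0919), and 573 had an unadjusted p under 0.05. With 2 late and 3 early libraries per culture the standard errors were wide. For Muc2 the log2 fold change was 3.69 in culture 1 and 4.93 in culture 2, a difference (culture 1 minus culture 2) of -1.24 ± 0.82, and for Car1 it was 2.20 and 5.19, a difference of -2.98 ± 0.94. The number of genes that differed was 1 with a pseudocount of 0.1, 12 without the filter on low values, and 0 to 2 over the leave-outs, with 2 without culture 2 at 2 DPP.

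**Figure D5:**
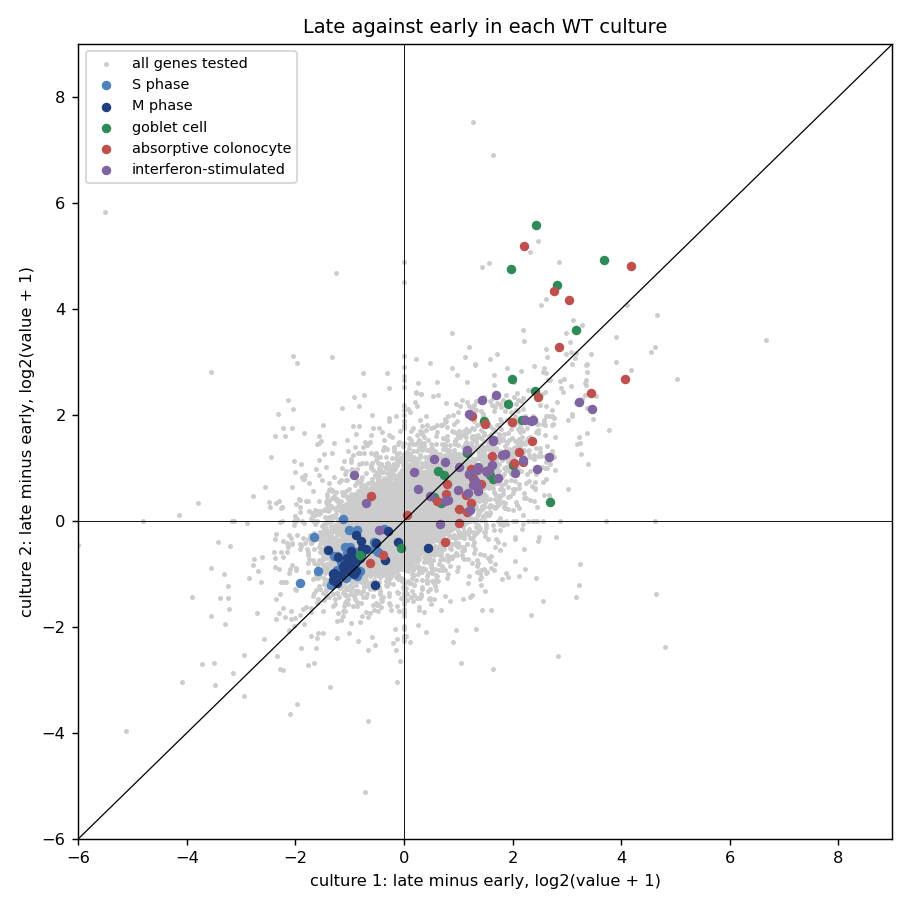
Late minus early log2 level in culture 1 (horizontal axis) against culture 2 (vertical axis), each point a gene, all tested genes in grey and members of 5 lists coloured. S phase and M phase genes lie at negative values on both axes, and goblet, absorptive and interferon-stimulated genes mostly at positive values on both.

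The same contrast was fitted in the 10 Tnfr2-/- libraries, which are separate samples from 2 other mice. There 1477 of 13417 genes (11%) were higher and 1170 (8.72%) lower late. Of 943 genes that rose in WT and were measured in Tnfr2-/- cultures, 913 (96.8%) had the same sign and 577 (61.2%) were called in the same direction there, which is 39.7% of the 1454 genes higher in Tnfr2-/- with a WT value. Of 567 that fell in WT, 526 (92.8%) had the same sign and 337 (59.4%) were called, 28.8% of the 1170 lower in Tnfr2-/-, and 2 were called in the opposite direction. Side by side, the Tnfr2-/- log2 fold change was -1.60 (adjusted p = 0.000668) for Rrm2, -3.31 (adjusted p = 0.000405) for Krt90, 3.95 (adjusted p = 0.000199) for Lypd8, 3.21 (adjusted p = 0.000186) for Muc2, 2.15 (adjusted p = 0.00377) for Lgr5 and 1.80 (adjusted p = 0.00116) for Irf7, against WT values of -1.55, -4.55, 4.50, 4.31, 1.99 and 2.12. In a test of the difference between genotypes itself, no gene of 13539 passed (limma, adjusted p of at least 0.134), and 1398 had an unadjusted p under 0.05. From 0 to 8 passed with 1 library left out, the 8 without WT culture 1 at 7 DPP. Whether smaller differences exist cannot be read from 2 mice per genotype.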

How the data were processed

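Colonoid RNA (Trizol, Direct-zol) had been made into stranded mRNA libraries and read once over 75 bases on a NextSeq. The processing notes of the submitters name CASAVA, kallisto, sleuth and mm10. The authors deposited one table of abundances per transcript, a signal made of TPM (transcript abundance per length as a share of the library) divided by size factors. It gives no read counts, so the depth behind each value is unknown and no counting interval can be given (the study's methods state an approximate number of reads for all samples together), and kallisto divides reads between near-identical transcripts. The same table holds the authors' own tests of genotype (p-values, q-values and model terms), which were not used.

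The table had 113974 lines, of which 781 identical repeats were dropped, and the 113193 transcripts were summed per gene symbol (35240 symbols). Transcripts without a symbol, at most 0.0989% of a library, were left out. Genes with a mean of 1 or more over the 10 WT libraries were fitted with limma 3.58.1 (R 4.3.3) on log2(value + 1), an additive model of phase and culture with a trended prior, and called at a Benjamini-Hochberg adjusted p under 0.05 over all 13617 genes. The unit allowed no count model. Interaction terms tested phase by culture and phase by genotype, the latter over 20 libraries with mouse as a block. The pairing of libraries by culture comes from the series text, in which replicates are mice, read with the replicate number as the mouse. Same-numbered libraries deviated together from the day means at a correlation of 0.095 to 0.3.

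Lists (47, with 1260 genes) are described by counts and medians only. Members and lists were chosen with earlier results of these data known. Named are the 15 largest rises and falls among called genes with no overlap between phases, a symbol that is not a predicted or pseudogene name and a higher phase mean of at least 5, up to 4 called genes per list and direction, and the genes the study followed. Some genes the rule selected are not reported here. Others are said to have been named after their values were seen. Gene positions are from GENCODE M21 (GRCm38), promoters from RefSeq (GRCm38.p6), where 10034 of the genes tested had an entry. Alternatives covered the pseudocount, the filter, scaling, the block, single days, single cultures and each library left out.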

Additional observations from a re-analysis of the deposited data

Results flagged for a closer look

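In 378 groups of libraries checked (the early and the late libraries of 189 of the 196 genes named by rule, the other 7 not being reported here) 22 held a library whose gap to the next one, as a share of the range of the group, passed Dixon's 95% critical value. Chance alone gives about 1 in 20 such groups. The gap share stands in brackets below, and the level is normalised TPM.

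At 7 DPP culture 1 lay above the other late libraries in Prr9 (95.05 against 10.83 to 14.29) [0.878], Dsc2 (217.0 against 129.4 to 135.1) [0.917], Nos2 (24.24 against 6.881 to 8.382) [0.85], Btg2 (82.19 against 50.32 to 53) [0.895], Klf10 (88.11 against 54.73 to 56.16) [0.946] and Tnfrsf1b (21.89 against 13.61 to 14.2) [0.911], and below them in Nfe2l1 (148.3 against 180.9 to 187.5) [0.847]. It is the library without which the fewest genes were called. At 5 DPP culture 1 lay low in Dusp5 (6.744 against 14.06 to 15.94) [0.85], Plk2 (48.8 against 78.45 to 86.34) [0.832], Nrg1 (21.24 against 60.52 to 69.8) [0.879] and Tgfbi (2.541 against 15.74 to 21.46) [0.841], and high in Tm4sf4 (4.927 against 2.74 to 2.83) [0.948] and Cnfn (1.281 against 0 in the others) [1.0]. That library also had the lowest summed fibroblast markers, whose part in these values was not tested. In culture 2, Klk10 was at 1.73 at 5 DPP and 0 in the other late libraries [1.0], and Hes1 was low at 7 DPP (73.44 against 84.82 to 86.69) [0.868] and at 1 DPP (40.07 against 55.64 to 66.42) [0.648].

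Among early libraries, culture 1 at 3 DPP stood high in Slc17a4 (4.957 against 0.1673 to 1.019) [0.664] and Dll4 (1.712 against 0.1893 to 0.3489) [0.847], genes that rose late, and low in Col3a1 (1052 against 1726 to 2182) [0.679] and Pitx1 (7.445 against 18.12 to 28.05) [0.661], genes that fell. Culture 1 at 2 DPP stood high in Rrp9 (95.28 against 48.21 to 60.62) [0.665] and Foxm1 (37.23 against 19.76 to 22.12) [0.823].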

How the results depend on the processing

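Counts are given as genes higher and lower late, 983 and 571 in the report. They were 898 and 558 with a pseudocount of 0.1, 640 and 351 without the filter on low values, where 21203 genes were tested, 890 and 584 with a mean of at least 5, 954 and 667 after median-of-ratios rescaling and 834 and 805 after scaling to equal sums, chosen after seeing the data. Without 1 DPP they were 460 and 221, and without 7 DPP, also chosen afterwards, 23 and 8. Of the fits of the pairing, no replicate block gave 650 and 410, culture as a correlated block 774 and 492, day as a factor with the block 1314 and 886, and all 20 libraries with mouse as a block 1525 and 1045. Culture 1 alone gave 0 and 0 (2593 genes at an unadjusted p under 0.05) and culture 2 alone 14 and 3, from 5 libraries each. Leaving out 1 library gave 349 to 1110 higher and 153 to 678 lower. Why the counts moved between settings was not tested.

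The difference between cultures, 0 genes, was 1 with a pseudocount of 0.1, 12 without the filter and 0 to 2 with 1 library left out. The difference between genotypes, 0 genes, was 0 to 8 with 1 library left out and 0 under the other settings run.

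In lists not given with this setting in the report, day as a factor gave 6 immediate early, 5 NRF2, 6 cholesterol, 6 fatty acid synthesis and 3 respiratory chain genes higher, and 5 p53, 5 EGF, 5 BMP and 4 fibroblast genes lower.

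Of 190 named genes that were called, 82 kept the call in all 10 leave-outs and 59 lost it in more than 5. Without the culture block 60 lost it, with day as a factor 2, and none changed direction under any setting. Genes not called that did change direction, as log2 fold changes, were Tgfb1 (0.195 without 1 DPP, 0.181 in culture 1 alone and -0.249 to 0.069 over the leave-outs), Tnfrsf1a (-0.274 in culture 1 alone, -0.081 without 7 DPP and -0.041 to 0.492 over the leave-outs), Tnfrsf1b (-0.13 in culture 2 alone, -0.089 without 7 DPP and -0.088 to 0.15 over the leave-outs) and Ly6a (-0.253 to 0.018 over the leave-outs). The table holds no counts, and the precision is limited by 2 mice.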
